A study of Arabidopsis thaliana with 6 samples.

Results

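LHCB4.1 (AT5G01530, probe set 251082_at) and PSAN (AT5G64040, probe set 247320_at) are nuclear genes for proteins of the 2 photosystems. They were chosen by name, as the probe sets that the platform annotation lists for 1 nuclear gene, LHCB4.1 or PSAN, and each gene has 1 such probe set. They are 2 of the 13356 genes so listed, and 2 of the 22746 probe sets that are not controls, and both were measured on all 6 arrays. The arrays measured RNA from whole Arabidopsis thaliana seedlings, 9 days old, in 3 groups with 2 arrays each: HY213 given estradiol for 8 h, wild type given estradiol for 8 h, and HY213 given a mock treatment for 8 h. HY213 is read as the pER22-AGL24 line, in which estradiol switches on a transgene of the flowering-time MADS-box gene AGL24 through the XVE system. The labels name no other transgenic line. It is 1 transgenic line, so effects of the transgene and of its insertion cannot be told apart in these samples. The ecotype label reads Columbia for 5 of the 6 samples and is absent for mock replicate 1. Each sample is a pool, and the design text describes the pools of the 2 replicates as biologically independent.

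LHCB4.1 encodes CP29, a monomeric chlorophyll-binding antenna protein that sits between the photosystem II core and the trimeric light-harvesting complexes and passes excitation energy inwards. PSAN encodes a small subunit on the lumen side of photosystem I, where it takes part in electron transfer from plastocyanin. Both proteins are made in the cytosol and imported into the chloroplast, where they join complexes whose reaction-centre proteins, such as PsaA, PsaB and D1, are encoded by the plastid genome. Nuclear photosystem genes are known to respond to light, the circadian clock and signals from the plastid, and their RNA is abundant in green tissue. In whole seedlings, fewer green cells and less of a transcript per green cell cannot be told apart.

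AGL24 (AT4G24540), the induced gene, read 106 and 401 intensity units in estradiol-treated HY213, replicates 1 and 2. It read 5.05 and 4.60 in estradiol-treated wild type, and 4.98 and 4.87 in mock-treated HY213. The induced group thus stood apart as labelled, while AGL24, near the controls in the other groups, does not tell wild-type from mock HY213 arrays. Array medians lay between 6.95 and 7.27, and the highest Bacillus control probe set read 5.14 to 6.22. Across probe sets, arrays that shared a replicate number correlated at r = 0.986 to 0.993, and arrays of the same group at r = 0.961 to 0.980. Replicate 2 therefore stood apart from replicate 1 in all 3 groups, and every comparison below is also given within each replicate.

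LHCB4.1 was read well above the control probe sets in every sample. Its intensity was 908 and 1123 in estradiol-treated HY213, with a mean of 1015 ± 152 (SD, n = 2). Estradiol-treated wild type gave 1044 and 1286, with a mean of 1165 ± 171 (SD, n = 2). Mock-treated HY213 gave 1024 and 1129, with a mean of 1076 ± 74.3 (SD, n = 2). By mean, wild type with estradiol was highest, mock HY213 next and estradiol HY213 lowest, and neither pair of neighbours in that order differed by more than the SD of the wild-type or the estradiol HY213 arrays. The ranges of the 3 groups overlapped, with estradiol HY213 replicate 1 the lowest array and wild-type replicate 2 the highest.

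PSAN varied more between arrays. Its intensity was 256 and 390.0 in estradiol-treated HY213, with a mean of 323 ± 94.7 (SD, n = 2). It was 265 and 464 in estradiol-treated wild type, with a mean of 364 ± 140.2 (SD, n = 2). It was 338 and 358 in mock-treated HY213, with a mean of 348 ± 14.2 (SD, n = 2). The order of the means was the same as for LHCB4.1, and neighbours again differed by less than the SD of either estradiol group. The mock arrays lay close together, inside the range of both estradiol groups, whereas the estradiol arrays of each line lay far apart.

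**Figure D1:**
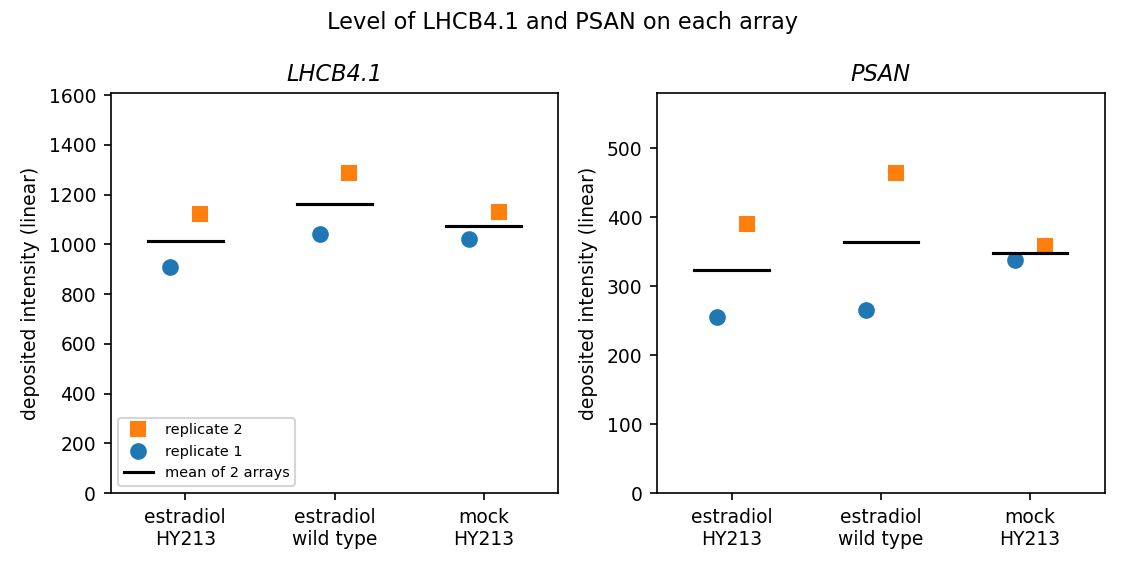
Deposited intensity (linear units) of LHCB4.1 and PSAN on each of the 6 arrays, with groups along the x axis, a point for each replicate and a bar at each group mean. For LHCB4.1 the arrays run between 908 and 1286 and for PSAN between 256 and 464, and in each group the replicate 2 array lies above the replicate 1 array.

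The comparison of estradiol-treated HY213 with estradiol-treated wild type is made with both lines receiving the chemical. The groups differ in AGL24 induction and in line. Without a mock-treated wild type, effects of induction and of line cannot be told apart in this comparison. LHCB4.1 was at 0.870 times the wild-type level in replicate 1 and at 0.874 times in replicate 2, so both replicates gave nearly the same ratio. On the log2(intensity + 16) scale the difference was -0.20 ± 0.17 (SE), with a 95% interval of -0.60 to 0.21, which did not pass the threshold (limma, adjusted p = 1 over all probe sets). With the replicate number as a block the same difference had an SE of 0.10 and an interval of -0.42 to 0.034 (limma, adjusted p = 0.998). PSAN was at 0.966 times the wild-type level in replicate 1 and 0.841 times in replicate 2, a log2 difference of -0.14 ± 0.33 (SE) with an interval of -0.94 to 0.66 (limma, adjusted p = 1). With the block the PSAN difference had an SE of 0.19 and an interval of -0.59 to 0.30 (limma, adjusted p = 0.998). On this scale the lower bounds without the block correspond to 0.658 times the wild-type level for LHCB4.1 and 0.520 times for PSAN. With the block they correspond to 0.745 and 0.664 times, and all these intervals also hold 0. In the fit without the block the PSAN difference took the other sign, at 0.15, without estradiol HY213 replicate 1, and at 0.24 without wild-type replicate 2. Each of these settings compares 1 array with arrays of both replicates, so the difference between replicates enters the value. Within each replicate PSAN was below wild type.

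The comparison of estradiol-treated with mock-treated HY213 is made within the line that carries the transgene. Estradiol exposure and induction change together in it, and no wild type was given a mock treatment. Effects of the chemical and of induction therefore cannot be told apart in this comparison. It shares the estradiol HY213 arrays with the comparison above. LHCB4.1 was at 0.887 times the mock level in replicate 1 and 0.995 times in replicate 2, a log2 difference of -0.089 ± 0.17 (SE) with an interval of -0.50 to 0.32 (limma, adjusted p = 1). PSAN was below mock in replicate 1, at 0.757 times, and above mock in replicate 2, at 1.09 times. Its log2 difference was -0.13 ± 0.33 (SE), with an interval of -0.93 to 0.67 (limma, adjusted p = 1). With the block the intervals were -0.32 to 0.14 for LHCB4.1 and -0.58 to 0.31 for PSAN (limma, adjusted p = 0.998 for each). Without estradiol HY213 replicate 1 the fit of the 3 groups gave differences of 0.062 for LHCB4.1 and 0.16 for PSAN. That setting compares 1 replicate 2 array with mock arrays of both replicates, so the difference between replicates enters both values. Within replicate 2 alone, as given above, LHCB4.1 was still below mock and PSAN was above it.

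Wild type with estradiol against mock-treated HY213 differs in both line and treatment, and is given to complete the order of the groups. LHCB4.1 was at 1.02 and 1.14 times the mock level in replicates 1 and 2, a log2 difference of 0.11 ± 0.17 (SE) with an interval of -0.30 to 0.52 (limma, adjusted p = 1). PSAN was at 0.784 and 1.29 times the mock level, a log2 difference of 0.012 ± 0.33 (SE) with an interval of -0.79 to 0.81 (limma, adjusted p = 1). With the block the intervals were -0.12 to 0.34 for LHCB4.1 (limma, adjusted p = 0.884) and -0.44 to 0.46 for PSAN (limma, adjusted p = 0.997). Neither member passed the threshold in any of the 3 group comparisons, where the share of all probe sets that passed was 0% for estradiol HY213 against wild type, 0% for estradiol HY213 against mock and 0% for wild type against mock. At an unadjusted p under 0.05 the fit counted 176, 272 and 268 probe sets in these comparisons, and neither member was among them. AGL24 itself, at 3.44 ± 0.51 (SE) above wild type, did not pass over all probe sets either (limma, adjusted p = 1). With the block the SE of AGL24 was 0.38, and it did not pass (limma, adjusted p = 0.332). The fit with the block counted 826, 962 and 1215 probe sets at an unadjusted p under 0.05, in the same order, and 0 passed the threshold.

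**Figure D2:**
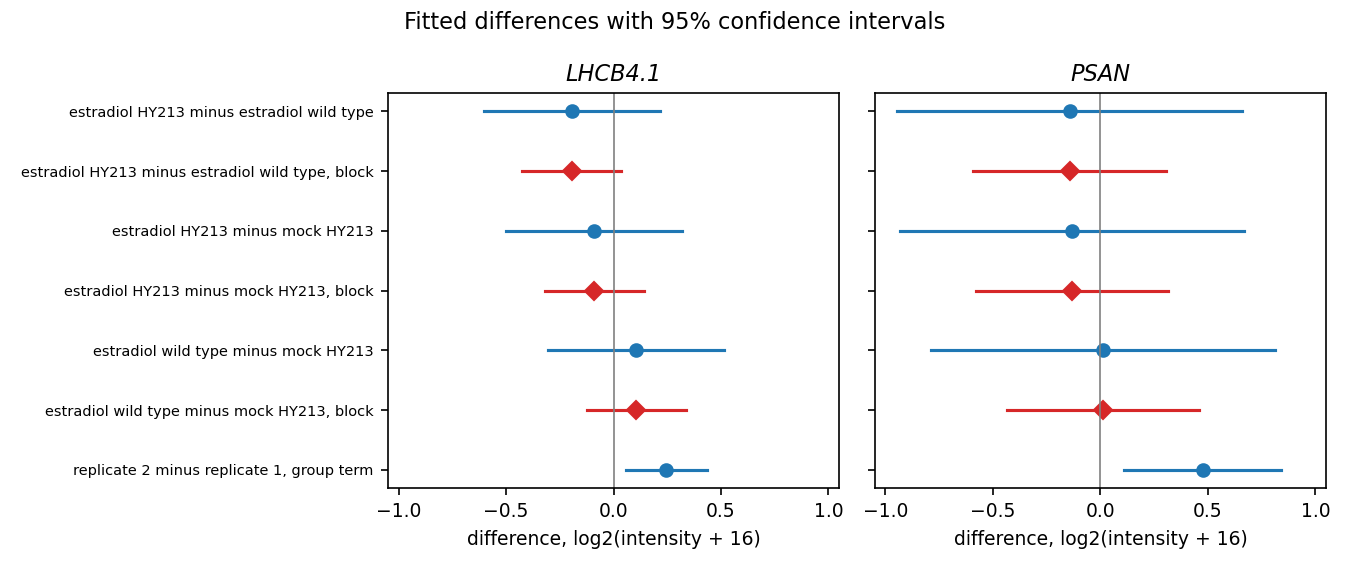
Differences between groups in log2(intensity + 16) for LHCB4.1 and PSAN, with the estimate and its 95% interval from the fit of 3 groups (circles) and with the replicate number as a block (diamonds), and replicate 2 minus replicate 1 in the lowest row. All intervals of group comparisons cross 0, and those of the replicate difference run from 0.059 to 0.43 for LHCB4.1 and from 0.11 to 0.84 for PSAN.

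The within-replicate ratios show how the 2 genes part. PSAN read below mock on both estradiol arrays of replicate 1 and above mock on both estradiol arrays of replicate 2. This crossing, a count rule added after the values were seen, held for 14% of all probe sets. PSAN meets the rule by construction, since the rule describes its values. With PSAN counted, the crossing held for 4 of the 8 measured nuclear photosystem genes, the others being LHCB4.2, PSBY and PSB27. It held for 5 of the 20 plastid photosystem genes (psbB, psbC, psbZ, psaB and psbI), and for 1 of 11 other nuclear photosynthesis genes, CHLM. LHCB4.1 did not follow it, because the estradiol HY213 array was below mock in both replicates and the wild-type array above mock in both. In replicate 2 the LHCB4.1 gap to mock was only -0.0073 on the log2 scale and became 0.0060 after quantile normalization.

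**Figure D3:**
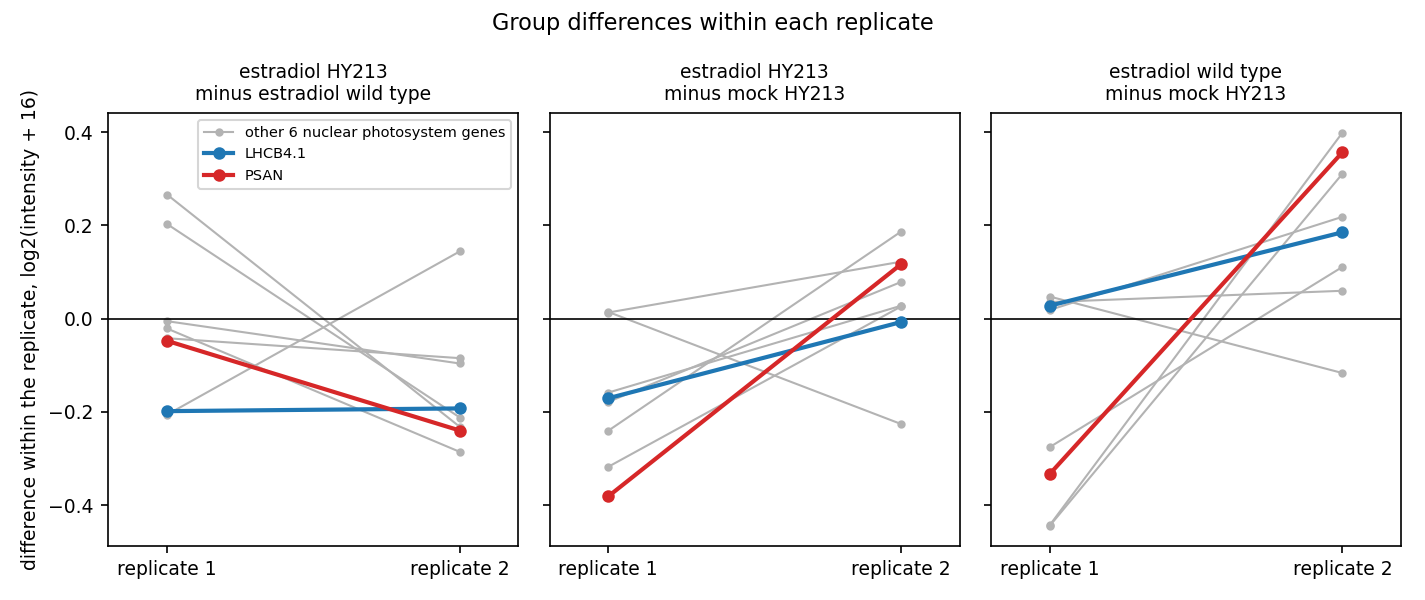
Log2(intensity + 16) differences between groups within replicate 1 and within replicate 2 for the 8 measured nuclear photosystem genes. PSAN lies at -0.38 in replicate 1 and at 0.12 in replicate 2 for estradiol HY213 against mock, while LHCB4.1 lies at -0.20 and -0.19 for estradiol HY213 against wild type.

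The difference between replicates was the pattern that both genes shared. Replicate 2 minus replicate 1 of LHCB4.1 was 0.30 on the log2 scale in estradiol HY213, 0.30 in wild type and 0.14 in mock HY213. For PSAN it was 0.58 in estradiol HY213, 0.77 in wild type and 0.080 in mock HY213. For each gene all 3 arrays of replicate 2 lay above all 3 arrays of replicate 1, as did 16.5% of all probe sets, and the difference was smallest in the mock pair. With the group held constant, replicate 2 minus replicate 1 was 0.25 ± 0.081 (SE) for LHCB4.1, with an interval of 0.059 to 0.43 (limma, adjusted p = 0.0929). For PSAN it was 0.48 ± 0.16 (SE), with an interval of 0.11 to 0.84 (limma, adjusted p = 0.0950). Neither passed the threshold of 0.05, while 6.47% of all probe sets passed it as higher and 4.57% as lower.

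The size and the call depended on which pair of arrays entered. In this fit, leaving out 1 array removes its whole pair from the estimate. Without mock replicate 1 the difference was 0.30 for LHCB4.1 (limma, adjusted p = 0.0289) and 0.67 for PSAN (limma, adjusted p = 0.00454), the mean of the estradiol pairs alone, since the mock pair had the smallest difference. Without an estradiol HY213 or a wild-type array the LHCB4.1 difference was 0.22 (limma, adjusted p = 0.272 to 0.418). In those settings the PSAN difference was 0.33 to 0.42 (limma, adjusted p = 0.341 to 0.367). Quantile normalization lowered the LHCB4.1 difference to 0.13 (limma, adjusted p = 0.341) and turned the PSAN mock pair, 0.080 as deposited, to -0.0043. The median of all probe sets moved by -0.0066 between replicates as deposited. Array medians lay near the controls, so this value does not describe bright probe sets such as those of LHCB4.1 and PSAN.

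Of the 21 light-harvesting genes listed, 3 had a probe set that names 1 gene, and all 3 encode CP29. LHCB4.2, the close copy of LHCB4.1, read 351 and 494 in estradiol HY213, 362 and 525 in wild type, and 441 and 485 in mock HY213. All its replicate 2 arrays were above its replicate 1 arrays, as for LHCB4.1, with a difference of 0.37 ± 0.13 (SE) that did not pass (limma, adjusted p = 0.102). LHCB4.3, a further CP29 gene, was dim, at 9.03 and 10.8 in estradiol HY213, 12.9 and 8.23 in wild type, and 11.9 and 10.3 in mock HY213, with groups and replicates overlapping. Probe sequences were not used here, so hybridisation shared between LHCB4.1 and LHCB4.2 was not tested.

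Of 13 nuclear photosystem I subunits, 2 were measured, PSAN and PSAE-1, a stromal subunit that takes part in binding ferredoxin. PSAE-1 read 785 and 1131 in estradiol HY213, 797 and 1383 in wild type, and 777 and 1326 in mock HY213. The 3 replicate 1 arrays lay close together and all 3 replicate 2 arrays were above them, including the mock array. PSAE-1 rose in replicate 2 by 0.69 ± 0.090 (SE) (limma, adjusted p = 0.00445), and its mock arrays lay as far apart as its wild-type arrays, unlike those of PSAN.

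Of 14 nuclear photosystem II genes, 3 were measured. PSB27, an assembly and repair factor of the lumen, read 252 and 409 in estradiol HY213, 207 and 483 in wild type, and 287 and 387 in mock HY213. It rose in replicate 2 by 0.75 ± 0.16 (SE) (limma, adjusted p = 0.0275), and all 3 replicate 2 arrays lay above the replicate 1 arrays. PSBW, a small membrane subunit, read 289 and 314 in estradiol HY213, 290.2 and 336 in wild type, and 286 and 287 in mock HY213. PSBY, another small subunit, read 552 and 626 in estradiol HY213, 477 and 728 in wild type, and 654 and 548 in mock HY213, so its mock pair ran the other way.

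Taken over these 8 genes, 2 of 8 passed as higher in replicate 2, against the 6.47% of all probe sets given above, and none passed as lower. In 5 of 8 (LHCB4.1, LHCB4.2, PSAE-1, PSAN and PSB27) all replicate 2 arrays were above all replicate 1 arrays, against 16.5% of all probe sets, and 6 of 8 were higher in replicate 2 in every group, against 22.9% of all probe sets. Their median difference was 0.31, made up of group medians of 0.39 in estradiol HY213, 0.55 in wild type and 0.11 in mock HY213. After quantile normalization the median was 0.20, with 6 genes above 0 and 2 below.

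Among the plastid photosystem genes more passed as lower than as higher. All 20 genes listed were measured, 9 passed as lower in replicate 2, against 4.57% of all probe sets, and 1, psbL, as higher, against 6.47%. In 11 of 20 all replicate 2 arrays lay below all replicate 1 arrays, against 18.5% of all probe sets, and 12 were lower in every group, against 28%. Their median difference was -0.42, with group medians of -0.48 in estradiol HY213, -0.18 in wild type and -0.35 in mock HY213. The median was -0.51 after quantile normalization, with 6 genes above 0 and 14 below as in the deposited values. Of all 22746 probe sets 10030 lay above 0 and 12716 below in the deposited values.

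Both complexes held plastid genes that fell and others that did not. Of 5 plastid photosystem I genes, 4 passed as lower (psaA, psaB, psaC and psaI) and psaJ stood at 0.30 without passing. Of 15 plastid photosystem II genes, 5 passed as lower (psbA, psbB, psbC, psbI and psbK), psbL passed as higher at 0.56, and 9 did not pass, among them psbE and psbF at 0.42 each, psbZ at 0.29 and psbJ at 0.22. Some of these plastid genes were dim. Of those that passed, psaC read 7.67 to 20.6 and psbB 8.22 to 39.9 over the 6 arrays. Of those that did not pass, psbT at 5.43 to 6.46 and psbN at 5.84 to 7.66 were near the controls. The values of the lowest gene in each complex follow. psaA, which encodes a reaction-centre protein of photosystem I, read 526 and 73.7 in estradiol HY213, 171 and 76.2 in wild type, and 328 and 61.8 in mock HY213. In replicate 2 it fell by 1.92 on the log2 scale (limma, adjusted p = 0.00547). psbA, which encodes the D1 protein of photosystem II, read 528 and 164 in estradiol HY213, 732 and 163 in wild type, and 559 and 156 in mock HY213. In replicate 2 it fell by 1.80 on the log2 scale (limma, adjusted p = 0.00101). The difference between the nuclear and the plastid list was not tested as such, since the lists were known to differ from earlier results of these data.

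**Figure D4:**
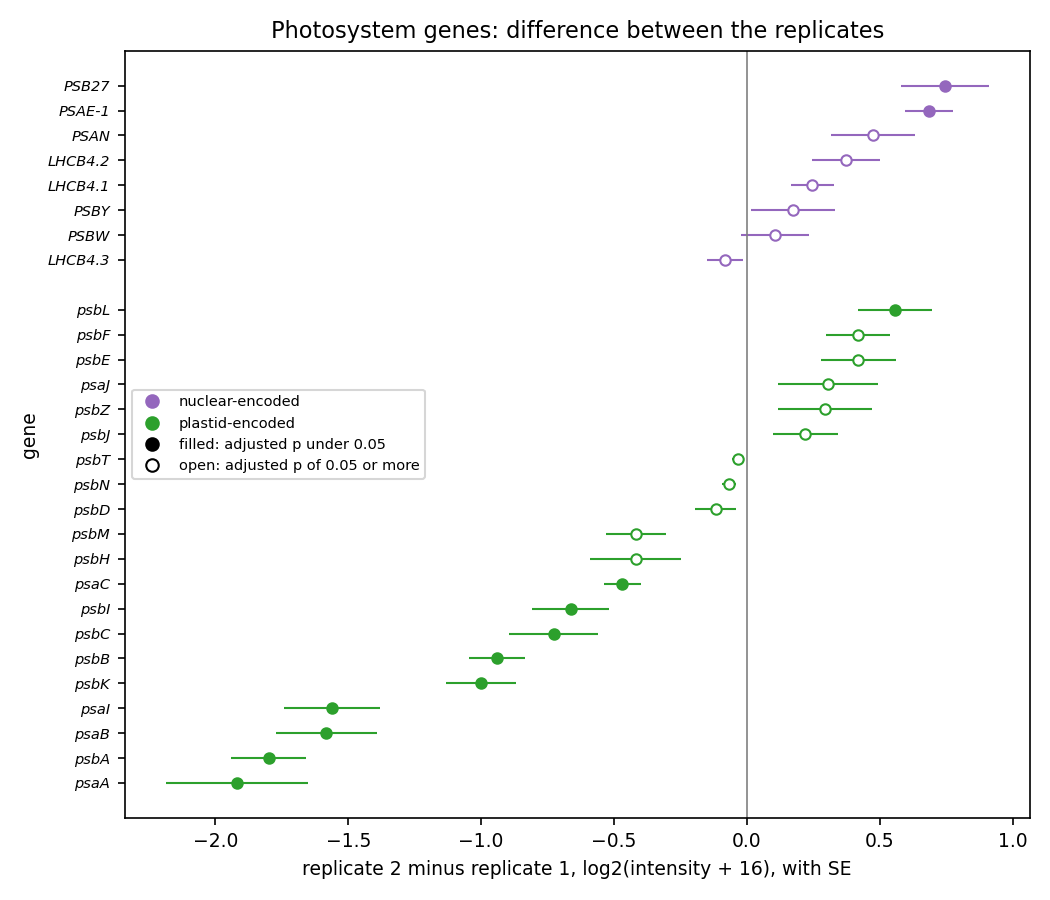
Replicate 2 minus replicate 1 in log2(intensity + 16) for the 8 nuclear and the 20 plastid photosystem genes, a point with its SE for each gene, filled where the adjusted p is under 0.05. The nuclear genes run from -0.081 to 0.75 with a median of 0.31, and the plastid genes from -1.92 to 0.56 with a median of -0.42.

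The group comparisons of the nuclear list were small. Against wild type, 7 of 8 nuclear genes lay below 0 in estradiol HY213, with a median of -0.057, as did 11239 of all 22746 probe sets. Lower in both replicates were 5 of 8 (LHCB4.1, LHCB4.2, PSAE-1, PSAN and PSBW), against 25.4% of all probe sets. None of the 8 was higher in both replicates, against 27.4% of all probe sets, and none of the 8 passed. For the plastid genes, 14 of 20 lay above 0, with a median of 0.050, as did 11507 of all 22746 probe sets. In both replicates 5 of 20 were higher and 1 lower, against the same 27.4% and 25.4% of all probe sets. Against mock, 1 of 8 nuclear genes, LHCB4.1, was lower in both replicates, against 24.2% of all probe sets, and 1, PSBW, was higher in both, against 25.6%. In wild type against mock, 3 of 8 were higher in both replicates and none lower, against 24% and 24.2% of all probe sets.

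Beyond the photosystems, 11 of 67 listed nuclear genes of electron transport, carbon fixation, chlorophyll synthesis, their regulators and antenna insertion were measured. RCA, rubisco activase, read 461 and 838 in estradiol HY213, 195 and 1036 in wild type, and 644 and 906 in mock HY213. It rose in replicate 2 by 1.21 ± 0.30 (SE) (limma, adjusted p = 0.0375) and was the only one of the 11 to pass, a share near the 6.47% of all probe sets that passed as higher. PRK and SBPASE, enzymes of the Calvin cycle, differed by 0.34 and 0.26 without passing, and like PSAN both had estradiol arrays far apart and mock arrays close together. Unlike that of PSAN, their mock pairs were lower in replicate 2, at -0.12 for PRK and -0.077 for SBPASE. Neither gene met the crossing rule. PORB, a protochlorophyllide reductase, differed by 0.43 and CHLM, a methyltransferase of chlorophyll synthesis, by 0.39, also without passing. The other 3 measured genes of chlorophyll synthesis were near 0, with GSA1 at -0.046, CHLI2 at -0.031 and HEMB1, named after its value was seen, at 0.0084, and the median of the 5 was 0.0084. AT2G26500 and ATPC1, the gamma subunit of the chloroplast ATP synthase, differed by -0.0079 and -0.018. HYH, a light-signalling transcription factor, was near the controls at 5.19 to 6.91.

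Markers of other cell types and RNA controls were set beside the replicate number. Of 12 root markers 2 were measured, and both were lower on all 3 arrays of replicate 2, against 18.5% of all probe sets. PYK10, a root beta-glucosidase, read 1154, 1044 and 1162 in replicate 2 against 1374, 1278 and 1320.0 in replicate 1, for estradiol HY213, wild type and mock HY213. Its replicate difference was -0.24 on the log2 scale and did not pass (limma, adjusted p = 0.0765). In replicate 2 EXPA7, a root-hair expansin, fell by 0.37 on the log2 scale (limma, adjusted p = 0.0188). EXPA7 was dim, at 9.99 to 23.2 over the 6 arrays. Of 5 guard-cell markers 1 was measured, FAMA, at -0.031 and with no common sign over the groups. The actin 3' to 5' ratio, a measure of RNA integrity, was 1.86, 2.06 and 1.89 in replicate 2 against 2.01, 2.80 and 3.87 in replicate 1, in the same group order. The ubiquitin ratio was 0.726, 0.774 and 0.650 in replicate 2 against 0.951, 0.925 and 0.826 in replicate 1, lower in all 3 groups. The GAPDH ratio, 0.509, 0.572 and 0.541 in replicate 2 against 0.492, 0.583 and 0.491 in replicate 1, did not move one way. The 25S rRNA probe set read 1504, 1689 and 1679 in replicate 2 against 1048, 756 and 1248 in replicate 1. The part of these values in the replicate difference of LHCB4.1 and PSAN was not tested.

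Likeness over the 6 arrays was measured as the root mean square distance between log2(intensity + 16) profiles, each centred on its own mean, among 868 probe sets listed for 1 gene with a mean intensity of at least 100. The closest to LHCB4.1 was AKINBETA1, a beta subunit of the SnRK1 kinase, at 0.0448, followed by AT1G04985, AT5G62720, AT5G14910 and AT1G32460, at up to 0.0596. The closest to PSAN was AT2G39000 at 0.0450, followed by AT5G23540, AT5G02160, F2KP, an enzyme of fructose-2,6-bisphosphate metabolism, and AT5G56100, at up to 0.0693. AT2G39000 read 109 and 172 in estradiol HY213, 103 and 192 in wild type, and 139 and 147 in mock HY213, the same order of arrays as in the description of PSAN apart from the lowest pair. The members were not among each other's closest: PSAN ranked 213 of 868 from LHCB4.1 and LHCB4.1 ranked 87 of 868 from PSAN, at a distance of 0.164. All these distances share the same 6 arrays, so the split between replicates enters each of them.

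**Figure D5:**
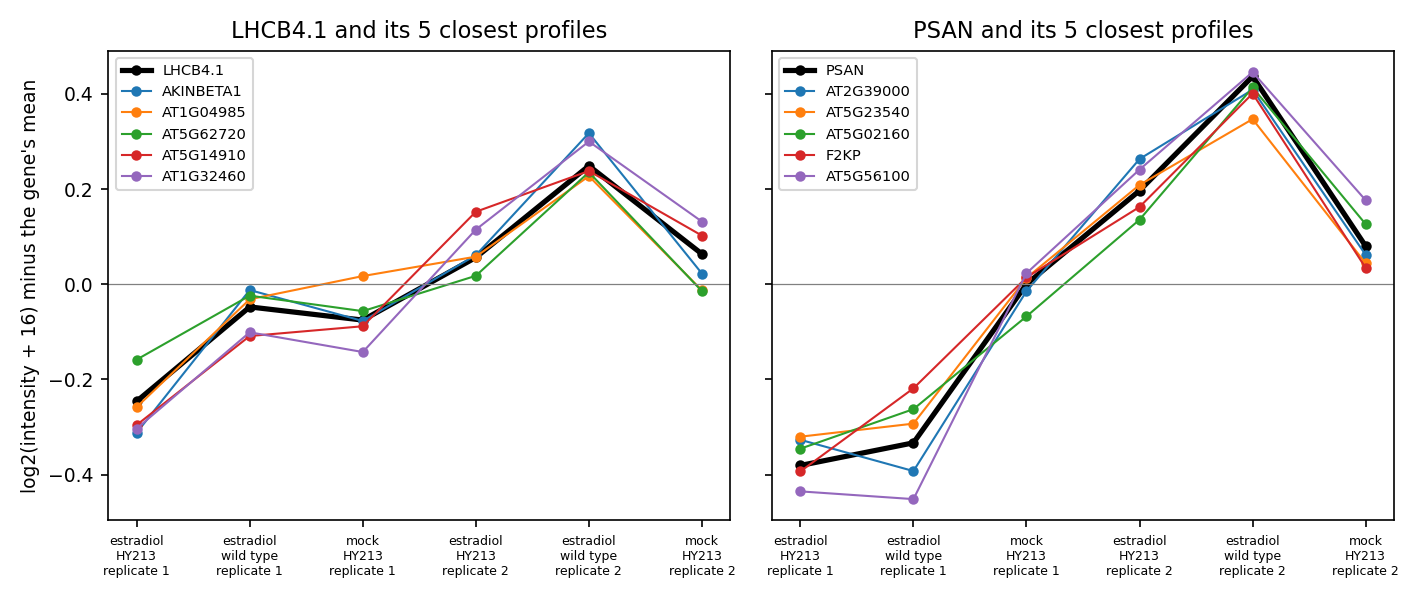
Centred log2(intensity + 16) profiles over the 6 arrays of LHCB4.1 and PSAN, each with its 5 closest probe sets. The LHCB4.1 profile peaks at 0.25 on wild-type replicate 2 and the PSAN profile at 0.44 on the same array.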

How the data were processed

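Total RNA of 6 seedling samples was extracted with an RNeasy kit and put on Affymetrix arrays, as the labels' protocols record. The authors deposited 1 table of intensity values on a linear scale. MAS5 and RMA appear in the submitters' processing notes without a role, so the summarisation and scaling behind the table are not known here. The 64 control probe sets were left out, leaving 22746, of which 13513 have 1 gene in the platform annotation, 503 have several and 8730 have no entry. RefSeq (TAIR10.1) matched 13436 of the 13513. It gave symbols, the loci that tie the gene lists to probe sets, and the list of plastid-encoded genes. Values were taken to log2(value + 16), which understates changes of dim probe sets, and a linear model of the 3 groups was run over the 6 arrays (limma 3.58.1, R 4.3.3; eBayes with its trend option), with Benjamini-Hochberg adjustment over all 22746 and a threshold of 0.05. The replicate difference came from a fit with group and replicate number. The number of arrays, 2 a group, limits the precision.

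Deviations from group means correlated between same-numbered arrays, with r 0.693 for estradiol and mock HY213 and 0.822 for estradiol HY213 and wild type. For wild type and mock HY213 r was 0.665. The numbers were therefore taken to pair the samples, as the design text's independent pools per replicate allow. The fit of the 3 groups holds no replicate term, so its SEs and intervals leave this pairing out. The fit with the replicate block takes it in. The tests were checked on simulated data in which the arrays were drawn independently, without the part shared by same-numbered arrays. That check therefore does not give the power of the tests in these data. The members, gene lists and named genes (all photosystem genes measured, the extremes of the other lists and the 5 closest profiles) were chosen with earlier results of these data known. Alternatives were pseudocounts of 1 and 64, quantile normalization, median centring, a filter on the dimmest 25%, other variance priors, an adjusted p of 0.1, the 4 arrays compared, the replicate block, no group term and each array left out. The list medians under other settings and the crossing rule were added after the data were seen. Promoter and protein sequences were not used here.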

Additional observations from a re-analysis of the deposited data

How the results depend on the processing

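LHCB4.1 in estradiol HY213 against wild type lay between -0.35 and -0.044 under the 16 alternatives. Those that change only the variance prior, the probe sets tested, the threshold, the block or arrays outside the comparison returned the same -0.20. They could not change the sign. Under the others, which change the scale or leave out an array compared, the difference also stayed below 0. With the replicate block the LHCB4.1 difference was -0.20 (limma, adjusted p = 0.998), and the block changed no call of a member in the 3 group comparisons. With 1 array left out, the estradiol HY213 minus mock difference ran from -0.24 to 0.062 for LHCB4.1 and from -0.42 to 0.16 for PSAN, and estradiol HY213 minus wild type ran from -0.53 to 0.24 for PSAN. Wild type minus mock ran from -0.042 to 0.25 for LHCB4.1 and from -0.37 to 0.40 for PSAN. These fits hold no replicate block. Where the array left out belonged to a group compared, 1 array was set against arrays of both replicates. The difference between replicates then enters the group difference, so these ranges do not give its spread within replicates. The replicate difference ran from 0.22 to 0.30 for LHCB4.1 and from 0.33 to 0.67 for PSAN. At an adjusted p of 0.1 the replicate differences of 0.25 and 0.48 passed. Probe sets past the threshold between replicates numbered 2510, but 431 without the variance trend, 4216 at an adjusted p of 0.1 and 637 to 4062 with 1 array left out. Those between estradiol HY213 and mock numbered 0 to 13 and between estradiol HY213 and wild type 0 to 16 with 1 array left out. The median of the 20 plastid genes was -0.24 with a pseudocount of 64. Other than the construction of each setting, the cause of these shifts was not tested. The limit is the number of arrays: 2 a group, in which replicate and pool cannot be told apart, and an intensity table whose summarisation is unknown.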
